A study of Caenorhabditis elegans with 4 samples.

Results

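The 9 genes described here carry the insulin signal of *Caenorhabditis elegans* from its receptor to its main transcription factor. They are *daf-2*, *age-1*, *aap-1*, *daf-18*, *pdk-1*, *akt-1*, *akt-2*, *sgk-1* and *daf-16*, taken by gene name from the 20181 genes of a count table. All 9 were found and all 9 passed the filter on low counts. RNA was sequenced from young adults in 4 libraries, and the series asks which transcripts belong to the germ line and which to the soma. The 2 gonad libraries came from gonads dissected out of N2, the wild-type laboratory strain. The 2 others came from whole worms of the mutant *glp-4(bn2)*, a temperature-sensitive allele known to leave worms with few germ cells. Each sample pooled many whole worms or dissected gonads, and the labels state no growth temperature. The mutated gene *glp-4* itself had 415 ± 26.7 CPM in gonads and 588 ± 25 in whole worms (SD, n = 2), a level that does not show whether the allele is present. Tissue and genotype changed together, so their effects cannot be told apart. Nothing states that the duplicates were grown separately, so a p-value here reflects the spread among these libraries alone, and that spread may be technical.

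As background, insulin-like peptides bind DAF-2, the worm's insulin and IGF receptor. The receptor recruits a PI3 kinase, made of the catalytic subunit AGE-1 and the adaptor AAP-1, which makes the membrane lipid PIP3, and the phosphatase DAF-18 removes that lipid again. PIP3 brings PDK-1 and the kinases AKT-1 and AKT-2 to the membrane, SGK-1 is a related kinase that also answers to TOR complex 2, and AKT phosphorylation holds the FOXO factor DAF-16 out of the nucleus. The pathway is known for its control of dauer formation and lifespan, for its part in germ cell proliferation, and for the long life of worms without germ cells, which needs DAF-16 in the intestine.

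Totals ranged from 19538620 to 25624824 counts per library. Levels in CPM are counts per 1000000 after TMM scaling, a correction for differences in library make-up, and the 3 counts that a count of 0 allows correspond to 0.116 to 0.142 CPM. The labelled tissues were checked against defining markers. All 10 germ line markers were higher in gonads, where they summed to 24994 and 25862 CPM against 258 and 281 CPM in whole worms. All 7 intestine, all 7 body wall muscle and all 5 pharynx markers were higher in whole worms, as were 7 of 9 neuron markers and 4 of 7 hypodermis markers, while 2 other hypodermis markers were higher in gonads. In gonads their sums were 89.8 to 114.7 CPM for intestine, 290 to 298 for muscle, 18.9 to 20.4 for pharynx, 60.3 to 63.2 for neurons and 314 to 341 for hypodermis. In whole worms they were 22740 to 26902, 13328 to 16183, 787 to 851, 411 to 456 and 848 to 910.4 in that order. The muscle marker *hlh-1*, the pharynx marker *ceh-22* and the hypodermis markers *dpy-7* and *rol-6* were at 0 counts in gonads. Markers of the gonadal sheath and spermatheca were present in both groups, at summed levels of 74.5 to 87.9 CPM in gonads and 162 to 178 CPM in whole worms, with *sth-1* at a count of 0 in both gonad libraries. Of these 7 markers 5 were higher in whole worms, 1 was higher in gonads and 1 was not called. Of 7 sperm markers 3 were too low to test, *spe-38* among them at 0 counts in every library, 3 were higher in gonads (*gsp-4* not without gonad replicate 1), 1 was not called, and the sum of the 7 did not pass 10.4 CPM in any library. The part of these cell types in the results below was not tested.

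The upper steps of the pathway were higher in gonads and its kinases split. Of the 9 genes, 5 were called higher in gonads, which needed an adjusted p under 0.05 together with a difference of at least 2-fold, namely *daf-2*, *age-1*, *aap-1*, *daf-18* and *akt-1*. Another 2, *akt-2* and *sgk-1*, were higher in whole worms by the same rule, and *pdk-1* and *daf-16* stayed under the fold minimum. Of the 9 genes *sgk-1* passed the filter through the whole worms alone, which set its direction. Among all 13101 tested genes 30.9% were called toward gonads and 53.1% toward whole worms, so a call in either direction, as for 7 of the 9, was made for 83.9% of genes. By adjusted p alone 6 of the 9 were higher in gonads and 3 in whole worms, beside 36.4% and 56.6% of all tested genes. The same 6 and 3 had no overlap between the groups' libraries, beside 38.2% and 58.2% of all tested genes, or 96.4% in either direction. In these mixed tissues fewer cells of a type and less RNA per cell cannot be told apart.

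**Figure D1:**
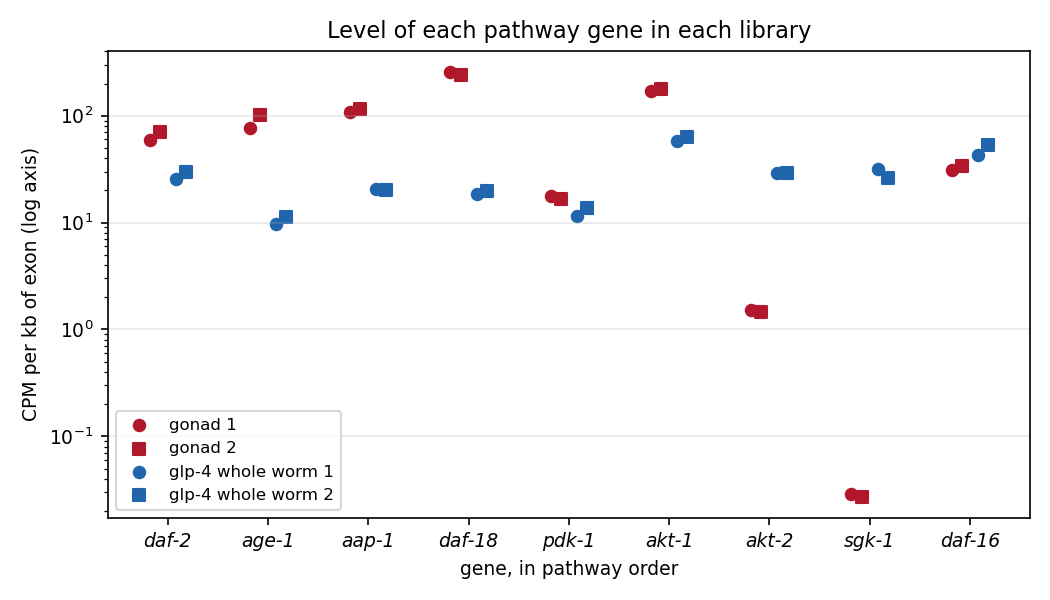
Level of the 9 genes in each of the 4 libraries, in CPM per kilobase of exon on a log axis, with gonad libraries in red and *glp-4* whole-worm libraries in blue (circle, replicate 1; square, replicate 2). Gonad points lie above whole-worm points from *daf-2* to *daf-18* and for *akt-1*, the groups lie close together for *pdk-1* and *daf-16*, and gonad points fall far below for *akt-2* and *sgk-1*.

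The receptor gene *daf-2* (WBGene00000898, chromosome III, 2994514 to 3040846, minus strand) has 7 annotated transcripts over 18 separate exon blocks. It had 10274 and 13147 counts in the gonad libraries, or 488 and 587 CPM, and 4625 and 6329 counts in the whole worms, or 214 and 245 CPM. Both gonad libraries therefore lay above both whole-worm libraries, by 2.34-fold on the means. The log2 fold change, gonad minus whole worm, was 1.23 ± 0.15 (SE) (quasi-likelihood test of edgeR, Benjamini-Hochberg adjusted p over all tested genes = 1.33e-07). With upper quartile scaling it was 0.87, under the fold minimum.

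The PI3 kinase genes were both higher in gonads, the catalytic subunit by more. The gene *age-1* (WBGene00000090, chromosome II, 11519328 to 11527054, minus strand) had 6306 and 8904 counts in gonads, or 299 and 398 CPM, and 825 and 1156 counts in whole worms, or 38.2 and 44.7 CPM. Its gonad libraries differed from each other, relative to their mean, more than those of any other member, yet the lower of them was still far above both whole-worm libraries. The log2 fold change was 3.07 ± 0.16 (SE), or 8.40-fold (edgeR adjusted p = 2.21e-13). An exon stretch of 4.89% of its length is shared with *B0334.10* on the opposite strand, a gene with at most 13 counts in a library.

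The adaptor gene *aap-1* (WBGene00000001, chromosome I, 5107843 to 5110183, plus strand) encodes the subunit that links the kinase to the activated receptor. It had 197 and 210 CPM in gonads from 4153 and 4703 counts, and 37.1 and 36.8 CPM in whole worms from 801 and 950 counts. The replicates of either group were close and the groups far apart, with a log2 fold change of 2.46 ± 0.13 (SE), or 5.51-fold (edgeR adjusted p = 3.56e-13). It shares 7.53% of its exon length with *Y110A7A.21* on the opposite strand, which had 16 to 21 counts in gonads and 376 to 490 in whole worms, and the labels do not state that strand was kept.

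The gene of the opposing phosphatase, *daf-18* (WBGene00000913, chromosome IV, 420011 to 425177, minus strand), showed the widest gap toward gonads of the 9. It had 18029 and 17921 counts in gonads, or 856 and 800 CPM, against 1332 and 1697 counts in whole worms, or 61.7 and 65.7 CPM. The log2 fold change was 3.70 ± 0.15 (SE), or 13-fold (edgeR adjusted p = 6.06e-15). Among all 13101 tested genes this difference lay at percentile 91.4, and that of *age-1* at percentile 89.0. Both the enzyme that makes PIP3 and the enzyme that removes it were thus among the genes higher in gonads.

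The kinase gene *pdk-1* (WBGene00003965, chromosome X, 1321344 to 1327986, plus strand), whose product activates the AKT kinases by phosphorylation, was the least changed of the kinases. It had 902 and 911 counts in gonads, or 42.8 and 40.7 CPM, and 601 and 865 counts in whole worms, or 27.8 and 33.5 CPM. The log2 fold change of 0.44 ± 0.15 (SE) had an adjusted p of 0.00869 in edgeR's test but was only 1.36-fold. That p rested on the scaling and on a single library. It became 0.596 with upper quartile scaling, 0.0974 with library totals only and 0.101 without whole-worm replicate 1, while the sign stayed positive in each.

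The AKT genes went opposite ways. The gene *akt-1* (WBGene00000102, chromosome V, 10248905 to 10252845, plus strand) had 8155 and 8990 counts in gonads, or 387 and 402 CPM, and 2882 and 3722 counts in whole worms, or 133 and 144 CPM. It was higher in gonads by 1.51 ± 0.13 (SE) on the log2 scale, or 2.84-fold (edgeR adjusted p = 1.46e-09). The gene *akt-2* (WBGene00000103, chromosome X, 14147700 to 14152070, plus strand), which acts with *akt-1* on DAF-16, had 77 counts in each gonad library, or 3.65 and 3.44 CPM. In whole worms it had 1499 and 1804 counts, or 69.4 and 69.8 CPM. Its log2 fold change was -4.29 ± 0.18 (SE), with the whole-worm mean 19.6-fold above the gonad mean (edgeR adjusted p = 3.97e-15).

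Transcripts of *sgk-1* (WBGene00004789, chromosome X, 16254842 to 16262122, minus strand) were nearly undetected in gonads. Each gonad library held 1 count, or 0.0475 and 0.0447 CPM, under the level of 3 counts. The whole-worm libraries held 1128 and 1105 counts, or 52.2 and 42.8 CPM. The gene passed the filter through these libraries alone, which set its direction. The whole-worm level was 1023 times that of gonads, with an exact 95% counting interval from 283 to 8453 that covers counting error only. The fitted log2 fold change of -9.85 ± 0.35 (SE) depends on a prior count at this depth (edgeR adjusted p = 5.07e-16). In the authors' deposited table of log2 values, which sets a count of 0 at 3, the gene is listed at 3.18 and 3.16 in gonads and at 10.37 and 9.95 in whole worms.

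The FOXO gene *daf-16* (WBGene00000912, chromosome I, 10750498 to 10776703, plus strand), on which the pathway acts, differed little. Its 11 annotated transcripts, which include isoforms from separate promoters, are summed in this table, so a change among them would not be seen. It had 2415 and 2781 counts in gonads, or 114.6 and 124 CPM, and 3446 and 5065 counts in whole worms, or 160 and 196 CPM. Both whole-worm libraries were above both gonad libraries, by 1.49-fold on the means. The log2 fold change was -0.57 ± 0.14 (SE), with an adjusted p of 0.000493 in edgeR's test, and it ranged from -0.74 to -0.44 as each library was left out in turn.

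**Figure D2:**
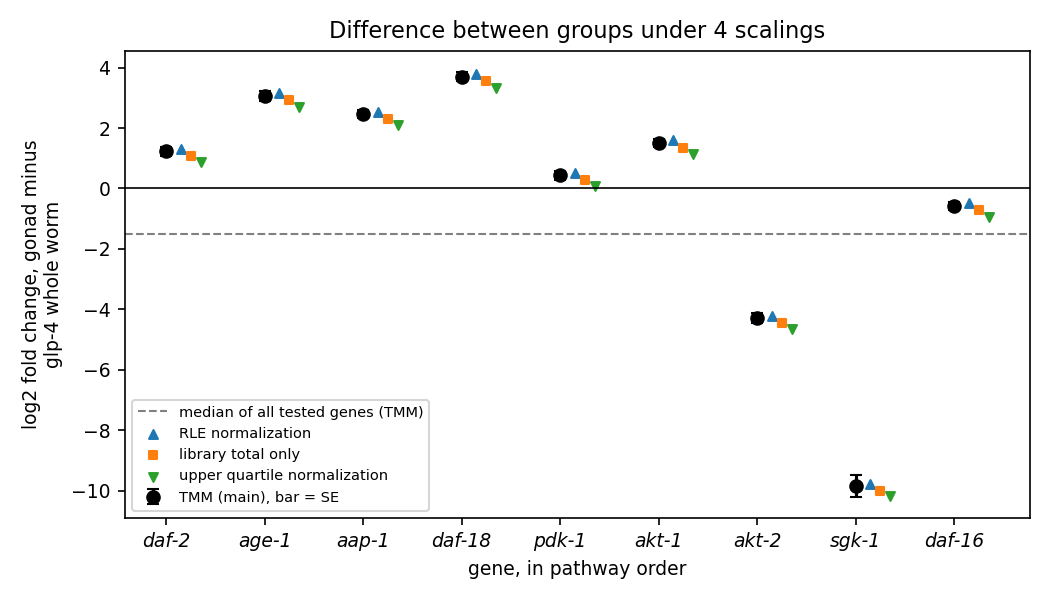
Log2 fold change of each gene, gonad minus *glp-4* whole worm, with the TMM estimate in black (bar, SE) and the estimates under 3 other scalings as coloured symbols. The dashed line is the median of all tested genes at -1.50, and the 9 genes run from -9.85 for *sgk-1* to 3.70 for *daf-18* with no change of sign between scalings.

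Scaling between such different tissues shifts all genes together. The median log2 fold change of all tested genes was -1.50 with TMM, -1.42 with RLE factors, -1.66 with library totals only and -1.86 with upper quartile factors. Relative to that TMM median, *daf-16* stood 0.93 higher, *pdk-1* 1.95 higher and *daf-18* 5.20 higher, whereas *akt-2* stood at -2.79 and *sgk-1* at -8.35. Under these 4 scalings each of the 9 genes kept its sign, with *daf-16* between -0.93 and -0.49 and *pdk-1* between 0.09 and 0.53.

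Ratios between genes within a library do not depend on scaling, and 6 pairs were compared per kilobase of exon. The largest shifts involved the kinases that phosphorylate DAF-16. The log2 ratio of *akt-1* to *akt-2* was 6.79 and 6.93 in the gonad libraries and 1.01 and 1.11 in the whole worms, so that *akt-1* exceeded *akt-2* by 116-fold in gonads and by 2.08-fold in whole worms. The log2 ratio of *sgk-1* to *akt-1* was -12.52 and -12.66 in gonads and -0.88 and -1.27 in whole worms, the gonad values resting on 1 count of *sgk-1* each. In each library *akt-1* was the highest of these 3 kinase genes.

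The 3 genes formed a different pool in each group. Of their summed level per kilobase, *akt-1* made up 99.1% and 99.2% in the gonad libraries, *akt-2* 0.895% and 0.813%, and *sgk-1* 0.0169% and 0.0154%. In whole worms *akt-1* made up 48.96% and 53.3%, *akt-2* 24.4% and 24.7%, and *sgk-1* 26.7% and 22.02%. The summed level itself was 171 and 178 CPM per kilobase in gonads and 119.7 and 118.7 in whole worms. The pool was thus nearly all *akt-1* in gonads, while in whole worms the other genes together took a share near that of *akt-1*.

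**Figure D3:**
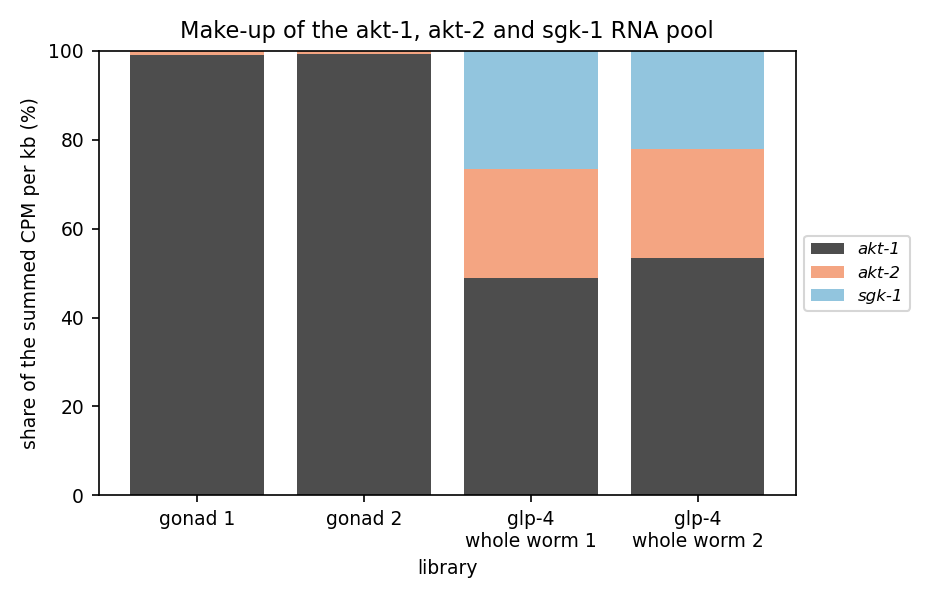
Share of *akt-1*, *akt-2* and *sgk-1* in their summed CPM per kilobase of exon, in percent, for each library. Both gonad bars are almost wholly *akt-1* (99.1% and 99.2%), and both whole-worm bars hold all 3 genes.

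The other pairs shifted less. The log2 ratio of *age-1* to *daf-18*, of kinase to phosphatase, was -1.75 and -1.25 in gonads and -0.93 and -0.79 in whole worms, so that *daf-18* was the higher of the pair in every library. For *age-1* over *aap-1*, of catalytic subunit over adaptor, it was -0.52 and -0.20 in gonads and -1.08 and -0.84 in whole worms. Receptor over transcription factor changed sides, as *daf-2* over *daf-16* was 0.92 and 1.07 in gonads and -0.75 and -0.85 in whole worms. The log2 ratio of *pdk-1* to *akt-1* was -3.27 and -3.39 in gonads and -2.35 and -2.19 in whole worms. In each of the 6 pairs the groups did not overlap, and each exact two-sided permutation test gave p = 0.333, also after Benjamini-Hochberg adjustment over the 6, which is the smallest that 2 against 2 libraries allow.

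The order of the 9 genes by level per kilobase differed between groups. In gonads it ran from *daf-18* (248 ± 11.7 CPM per kilobase, SD, n = 2) through *akt-1* (173 ± 4.49), *aap-1* (113 ± 5.07), *age-1* (88.7 ± 17.7), *daf-2* (64.8 ± 8.49), *daf-16* (32.4 ± 1.84), *pdk-1* (17.2 ± 0.619) and *akt-2* (1.49 ± 0.064) to *sgk-1* (0.0282 ± 0.0012). No neighbours in that order overlapped between their libraries. In whole worms *akt-1* led (60.9 ± 3.27), followed by *daf-16* (48.3 ± 6.98), and *age-1* was last (10.6 ± 1.17). The genes *akt-2* (29.2 ± 0.114), *sgk-1* (29.0 ± 4.10) and *daf-2* (27.7 ± 2.62) overlapped there and had no order. Then came *aap-1* (20.5 ± 0.132), *daf-18* (19.1 ± 0.844) and *pdk-1* (12.7 ± 1.65), so the levels spanned a far narrower range than in gonads. With the longest coding length in place of exon length, *daf-16* and not *akt-1* was first in whole worms. Summed over the 9 genes the level was 721 and 757 CPM per kilobase in gonads and 249 and 267 in whole worms.

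Chromosome separated the genes in part. The 3 genes on the X chromosome were *pdk-1*, *akt-2* and *sgk-1*, of which 2 were higher in whole worms and *pdk-1* was not called. Of the 6 on autosomes 5 were higher in gonads, and *daf-16* was not called. Among the tested genes placed by the annotation, 79.9% of 1966 X-linked genes and 48.3% of 10778 autosomal genes were higher in whole worms, with 7.73% and 35% higher in gonads.

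Genes with levels nearest those of the receptor and of the transcription factor were taken by Euclidean distance over the 4 libraries, in log2 CPM per kilobase with 0.1 added. Nearest to *daf-2* among 12508 named genes were *hars-1*, which encodes a histidyl-tRNA synthetase (distance 0.112), *gex-3*, a gene of the actin-regulating WAVE complex (0.170), and the translation initiation factor gene *eif-3.E* (0.234). Nearest to *daf-16* were *C33F10.14* (0.174), *kdin-1* (0.190) and *F35E12.10* (0.254). With 4 libraries in 2 groups, such likeness rests on level and on 1 difference.

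Transcripts of the receptor's ligands were low in both groups. Of 40 insulin-like peptide genes 39 matched the table, and 13 had enough counts to be tested. Of these 11 were higher in whole worms and 1 in gonads, beside 53.1% and 30.9% of all tested genes. However, 6 of the 13 had no count in gonads, and others, *ins-33* and *ins-24* among them, had fewer than 3 there. All of these passed the filter through the whole worms alone, which set their direction. The count thus describes the abundant ligands and not the family. The median log2 fold change of the 13 was -7.28, or -4.02 with genes at 0 in a group placed at a bound of 3 counts over that group, and over the 34 ligands with any count it was -4.59 in edgeR without the filter and -3.84 in DESeq2. All 39 together came to 2.04 and 2.37 CPM in gonads and to 32.7 and 30.8 CPM in whole worms. The most abundant per kilobase were *ins-33* (8.82 ± 1.36 CPM in whole worms, SD, n = 2, and 1 count in each gonad library), *ins-7* and *ins-24* (6.68 ± 1.39 CPM, and 1 count in the gonad libraries together). The gene *ins-7*, whose product is known to act on DAF-2 as an agonist, had 3.12 ± 0.634 CPM in whole worms and no count in gonads, at least 44.6-fold higher in whole worms. Against the list, *ins-34* had 12 and 13 counts in gonads and none in whole worms, at least 9.09-fold higher in gonads. That gene passed the filter through gonads alone, which set its direction. It could not be tested without either gonad library, which left 0 ligands called higher in gonads.

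Adaptors near the receptor and other enzymes of phosphoinositides went both ways, and their counts, like those of the TOR and DAF-16 partner genes, stand beside 30.9% of all tested genes toward gonads and 53.1% toward whole worms. Of 6 adaptor and RAS-link genes 1 was higher in gonads and 2 in whole worms, with a median log2 fold change of -0.30. The phosphatase gene *ptp-2* was higher in gonads by 2.08 ± 0.13 (SE), while *ist-1*, the worm's insulin receptor substrate gene, differed by -2.67 ± 0.19 and the adaptor gene *soc-1* by -1.98 ± 0.15. Of 12 other phosphoinositide kinases and phosphatases 2 were higher in gonads and 3 in whole worms, with a median of 0.39. The myotubularin phosphatase genes *mtm-9* (2.43 ± 0.18) and *mtm-3* (1.19 ± 0.13) were higher in gonads. Those higher in whole worms were *inpp-1* (-4.01 ± 0.23), the class II PI3 kinase gene *piki-1* (-1.59 ± 0.14) and *ppk-3* (-1.32 ± 0.13), which encodes the kinase that makes PI(3,5)P2. The PI4P 5-kinase gene *ppk-1*, whose lipid product is the substrate of AGE-1, had 158 ± 13.6 and 154 ± 9.67 CPM (SD, n = 2), with an edgeR adjusted p of 0.762.

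The TOR and AMPK branches were measured beside the pathway. Of 8 tested TOR complex and S6 kinase genes 3 were higher in gonads and 0 in whole worms by edgeR with the fold minimum, with a median log2 fold change of 0.75. With no fold minimum 1 gene, the S6 kinase gene *rsks-1*, was higher in whole worms in edgeR (adjusted p = 0.00923), which was also the count at an unadjusted p under 0.05, and DESeq2 had 0 there at an unadjusted p under 0.05. The members higher in gonads were *sinh-1* of TOR complex 2 (2.24 ± 0.19, SE), *daf-15*, the Raptor gene of TOR complex 1 (1.18 ± 0.15), and the small GTPase gene *rheb-1* (1.16 ± 0.17). The gene *rict-1*, which encodes the Rictor subunit through which TOR complex 2 reaches SGK-1, was chosen after its values were seen. It had 207 CPM in gonads against 106 in whole worms, which was under the fold minimum and not called. With upper quartile scaling 1 of these genes was higher in gonads.

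Of 13 AMPK and LKB1 genes 3 were higher in gonads and 7 in whole worms, with a median log2 fold change of -1.61. These shares and this median lay near those of all tested genes, which were 30.9%, 53.1% and -1.50. The LKB1 kinase gene *par-4* (1.87 ± 0.14, SE) and its partner genes *mop-25.2* (1.31 ± 0.14) and *strd-1* (1.05 ± 0.17) were higher in gonads. Without whole-worm replicate 2, *strd-1* had a log2 fold change of 0.91, and with upper quartile scaling only 1 of the 13 was higher in gonads. The AMPK gamma subunit genes *aakg-3* (-5.13 ± 0.49), *aakg-1* (-2.84 ± 0.16) and *aakg-2* (-2.81 ± 0.14) were higher in whole worms. The value for *aakg-3* rests on 2 and 3 counts in gonads, at or under the level of 3 counts, against 86 and 114 in whole worms. This gene passed the filter through the whole worms alone, which set its direction.

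Among regulators and partners of DAF-16, 14 of 24 tested genes were higher in gonads and 6 in whole worms, with a median log2 fold change of 1.32 beside -1.50 for all tested genes. The arginine methyltransferase gene *prmt-1*, whose product is known to methylate DAF-16 and so hinder AKT phosphorylation, had 1645 ± 158 CPM in gonads against 90.1 ± 9.63 in whole worms (SD, n = 2). The nuclear corepressor gene *hcf-1* had 891 ± 22.4 and 64.9 ± 0.688 CPM, and the SWI/SNF subunit gene *swsn-1* was higher in gonads by 2.65 ± 0.13 (SE) on the log2 scale. The 14-3-3 genes, whose products hold phosphorylated DAF-16 in the cytoplasm, had their higher levels in whole worms, with 572 ± 54 against 1600 ± 373 CPM for *ftt-2* and 423 ± 34.3 against 629 ± 15.7 CPM for *par-5*, which was under the fold minimum. The beta-catenin gene *bar-1* (-4.60 ± 0.19), the JNK gene *jnk-1* (-4.59 ± 0.46) and its upstream kinase gene *jkk-1* (-3.0 ± 0.50) differed most toward whole worms. Of these *jnk-1* (6 and 2 counts in gonads) and *jkk-1* (7 and 5) passed the filter through the whole worms alone, which set their direction. Without gonad replicate 1 or 2 the value for *jnk-1* was -5.56 or -3.97.

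Genes known to be raised by DAF-16 form a list drawn from background knowledge. Of 29 rows 19 had enough counts to be tested. Of these 17 were higher in whole worms and 1 in gonads, beside 53.1% and 30.9% of all tested genes. Rows such as *far-3*, *mtl-1* and *sod-3*, with at most 3 counts over both gonad libraries, passed the filter through the whole worms alone. For such rows the filter set the direction, so the count and the median do not describe the whole list. The median was -7.61 on the log2 scale, which leaving out the first or the second gonad library moved to -6.96 or -7.0, and over the 22 rows with any count it was -6.86 both in edgeR without the filter and in DESeq2. The glyoxylate cycle gene *icl-1* had 762 ± 42.2 CPM in whole worms (SD, n = 2) and 0.803 ± 0.128 CPM in gonads. The metallothionein gene *mtl-1* had 105 ± 0.889 CPM in whole worms and 3 counts in gonads, a 1519-fold ratio (exact counting interval 519 to 7367), and its fitted log2 value was -14.24 or -9.46 when the first or second gonad library was left out. The fatty acid and retinol binding protein gene *far-3* had no count in gonads and was at least 321-fold higher in whole worms. The superoxide dismutase gene *sod-3*, a common reporter of DAF-16 activity that was chosen after its values were seen, had 1 count in each gonad library and 154 and 147 counts in whole worms. Intestine markers moved the same way as this list, at 89.8 to 114.7 CPM in gonads against 22740 to 26902 in whole worms, and their part in it was not tested. Against the list, *sip-1*, a small heat shock protein gene, had 1829 ± 134 CPM in gonads against 8.74 ± 0.235 in whole worms, and *F43D9.8* on the opposite strand covers 19.2% of its exon length.

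The list of genes required for the long life of worms without germ cells had 16 tested genes. Of these 11 were higher in whole worms and 3 in gonads, beside 53.1% and 30.9% of all tested genes, whose median was -1.50. Among the 16, 3 had no count in gonads and *nhr-80* had 1, so these passed the filter through the whole worms alone. For them the filter set the direction. For these 16 the median log2 fold change was -5.83, or -4.58 with genes at 0 in a group at their bound. The desaturase gene *fat-6* had 702 ± 9.08 CPM in whole worms (SD, n = 2) and 0.808 ± 0.132 CPM in gonads. The nuclear receptor gene *nhr-80* had 38.8 ± 2.30 CPM in whole worms and 1 count in gonads, a 1681-fold ratio (exact counting interval 301 to 66413). The gene *daf-36*, whose product starts the synthesis of the steroid ligands of DAF-12, had no count in gonads and was at least 101-fold higher in whole worms. Higher in gonads were *tcer-1* (2.40 ± 0.14, SE), which encodes a transcription elongation factor that acts with DAF-16 in the intestine, *mxl-2* (2.19 ± 0.17) and the heat shock factor gene *hsf-1* (1.65 ± 0.14). The nuclear receptor gene *nhr-49* had 168 ± 13.3 and 199 ± 20.3 CPM in gonads and whole worms (SD, n = 2), with an edgeR adjusted p of 0.0919.

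**Figure D4:**
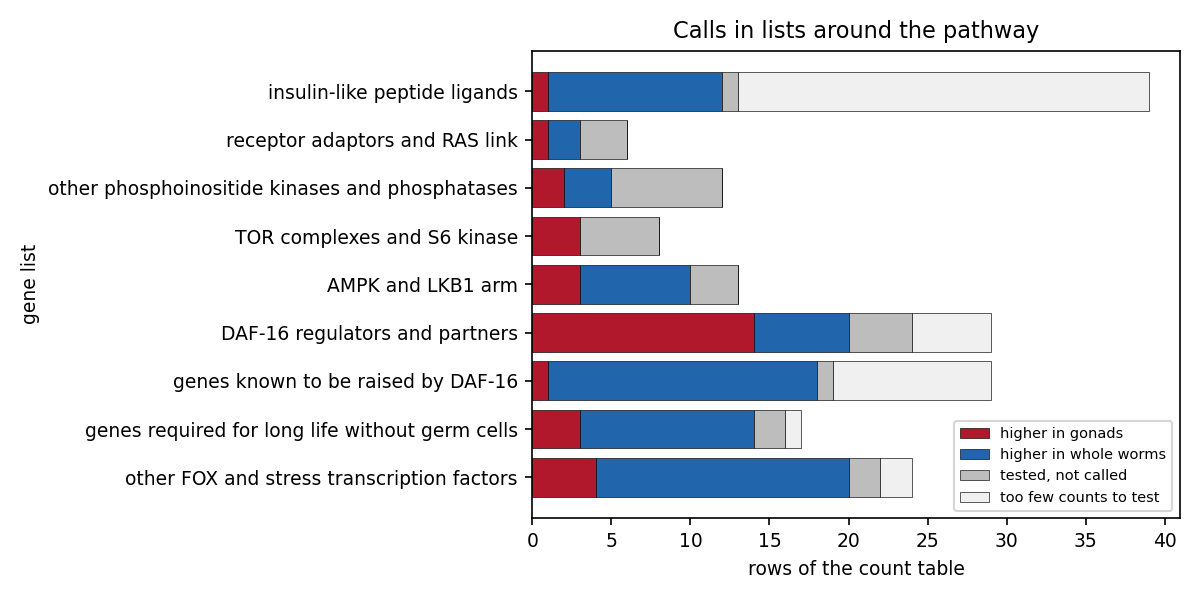
Number of genes of each list around the pathway that were higher in gonads (red), higher in whole worms (blue), tested and not called (dark grey) or too low to test (light grey). Regulators and partners of DAF-16 have the longest red bar with 14 genes, and 17 of the genes known to be raised by DAF-16 are blue.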

How the data were processed

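Of the 4 RNA libraries, the deposited table of raw counts per gene was used for all tests. The sources used here do not give the aligner, counter or build. Per the labels' protocols, ribosomal RNA was removed and an amplifying cDNA kit was used, so reads are not independent molecules. The authors' deposited log2 table equalled log2 of the scaled count plus 8 within 5e-05 and served only for listed values. Of 20182 rows, 1 that repeated another gene's counts was left out. Names, coordinates (WBcel235) and exon lengths came from Ensembl release 115, which matched 19513 rows.

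Counts were tested with edgeR 4.0.16 in R 4.3.3 (quasi-likelihood, robust, TMM, default filter with minimum count 10 and minimum total 15, group only), with Benjamini-Hochberg adjustment over 13101 genes. Calls needed an adjusted p under 0.05 together with a 2-fold difference. SE came from the F statistic. The fit was also run on simulated counts in which only a small part of the genes differed between groups. That run does not check the scaling or the calls where most genes differ, as here. Alternatives were RLE, upper quartile and no scaling, no filter, no fold minimum, DESeq2 1.42.0, a replicate block, and leaving out each library. Members and lists were chosen with earlier results of these data known. Named were the 9 genes and, from each list, the 3 with the highest level and up to 3 with the largest called difference in each direction, with exceptions stated. No sequences were used here.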

Additional observations from a re-analysis of the deposited data

How the results depend on the processing

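Of 372 values recomputed under alternatives for 39 results, 358 kept their direction and their call, or stayed close for counts and values, and none of the 372 reversed. The member counts, 5 toward gonads and 2 toward whole worms, held in all settings except upper quartile scaling, with 4 in gonads, and no fold minimum, with 6 and 3. With upper quartile scaling *daf-2* was at 0.87, and 1 gene each was higher in gonads among TOR, AMPK and other phosphoinositide genes. With no fold minimum those counts were 7, 6 and 6, with 1 TOR gene higher in whole worms, and 2 genes known to be raised by DAF-16 were higher in gonads. With no filter 19 ligand genes were higher in whole worms. Ligand genes higher in gonads ranged from 0 to 1 as single libraries were left out. With 1 added to each count the shift of *sgk-1* over *akt-1* was -10.51 in place of -11.51, since it rests on 1 count per gonad library. With coding length 5 of 9 genes kept their place in the whole-worm order. The cause of the other changes was not tested.

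The replicate numbers do not pair samples by the labels, and deviations of same-numbered libraries correlated at 0.0893 across 13101 genes, which are not independent. With the replicate number as a block, 5 members were again higher in gonads and 2 in whole worms, with log2 values such as 3.70 for *daf-18* and -0.57 for *daf-16*, and no call on a member or list count moved by over 1.5 times. Depth limits *sgk-1* and most ligands in gonads, where a level below 0.134 to 0.142 CPM could not be shown.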

Other observations

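The list of other forkhead and stress transcription factors had 22 tested genes. Of these 16 were higher in whole worms and 4 in gonads, beside 53.1% and 30.9% of all tested genes. The median log2 fold change was -3.44 beside -1.50 for all tested genes. Among the 22, 2 had no count in gonads and passed the filter through the whole worms alone. The genes *fkh-3*, *fkh-4* and *pes-1* passed it through gonads alone. For all of these the filter set the direction. The genes *hsf-1*, *skn-1*, *hlh-30* and *pha-4* are also on the list of genes required for long life without germ cells. The gene *pqm-1*, whose product is known to leave the nucleus when DAF-16 enters it, had 870 and 1194 counts in whole worms and none in gonads, at least 630-fold higher in whole worms. The bZIP genes *zip-2* (1267 ± 329 CPM, SD, n = 2) and *xbp-1* (1247 ± 184 CPM) and the hypoxia factor gene *hif-1* (1147 ± 245 CPM) were the most abundant in whole worms, with 19.2, 189 and 61.4 CPM in gonads. The genes *atf-4* (-7.07 ± 0.20, SE) and *unc-130* (at least 185-fold, with no count in gonads) had the same direction.

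Of the 4 factors higher in gonads 3 encode forkhead proteins. The gene *fkh-4* had 6.53 ± 0.11 CPM in gonads against 0.271 ± 0.0552 in whole worms (SD, n = 2). The gene *fkh-3* had 44 and 48 counts in gonads and none in whole worms, at least 33.5-fold higher in gonads. The gene *pes-1* had 37 and 13 counts in gonads and none in whole worms, at least 18.2-fold higher, and could not be tested without gonad replicate 1. The stress regulator gene *skn-1*, chosen after its values were seen, had 205 CPM in gonads against 179 in whole worms, with an adjusted p of 0.187 in edgeR's test.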
